A study of Mus musculus with 15 samples.

Results

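Transcripts of 9 genes of serine, one-carbon and asparagine synthesis were followed through B cell activation and through treatment with GSK-J4, a small-molecule inhibitor of the histone H3K27 demethylases KDM6A and KDM6B. The genes were Asns, Phgdh, Psat1, Psph, Shmt1, Shmt2, Mthfd2, Mthfd1l and Cbs, taken by symbol from the 21761 genes of the expression table. The series held 15 RNA-seq libraries, 3 in each of 5 groups, all from wild-type female C57BL/6J mice. Naive cells were CD43- B cells with no stimulation and no treatment. The other 4 groups were CD43- B cells cultured for 3 days with LPS, IL-2 and IL-5, together with DMSO (the solvent) or 250 nM GSK-J4, and then magnetically enriched for GL7, a surface marker of activated B cells, or for CD138, the surface protein of plasmablasts and plasma cells that Sdc1 encodes. The cultured groups are called GL7+ DMSO, GL7+ GSK-J4, CD138+ DMSO and CD138+ GSK-J4. All cultured groups share the stimulation, so the step from naive to cultured cells includes LPS, both cytokines, the culture itself and the enrichment, which cannot be told apart. Replicate numbers name the mouse. In CD138+ GSK-J4 cells 1 library, here called replicate 4, could not be tied to a mouse.

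Serine is made from a glycolytic intermediate in 3 steps, catalysed in turn by PHGDH, PSAT1 and PSPH. The hydroxymethyltransferases SHMT1, in the cytosol, and SHMT2, in mitochondria, turn serine into glycine and pass a carbon unit to folate. In mitochondria MTHFD2 oxidizes that unit and MTHFD1L releases it as formate, which the cytosol uses to make purines and thymidylate. CBS joins serine with homocysteine on the way to cysteine, and ASNS makes asparagine from aspartate with glutamine as the nitrogen donor. Several of these genes are known targets of ATF4, a transcription factor of the amino acid and stress response, and proliferating lymphocytes are known to depend on mitochondrial one-carbon metabolism.

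Expression was given as RPKM, the reads of a gene scaled to its length and to the reads assigned to all genes of the library. Depth, read from the step size of low values, was 9174454 to 12211842 reads in GL7+ libraries, 9677485 to 11635409 in CD138+ DMSO and 6241273 to 7712198 in CD138+ GSK-J4. Naive libraries had 13189949, 1318001 and 6174999 reads. The value for naive replicate 2 is the depth at which its 2590 low values are whole reads, and a depth of any whole multiple, with every count an equal multiple, cannot be told apart from it. Naive replicate 2 was the shallowest library of all, where 1 RPKM stood for 3.56 reads in a gene of 2703 bases, the median length, against 16.7 to 35.7 reads elsewhere. Sdc1 was at 30.5 to 44.8 RPKM in the CD138+ libraries and at 1.26 to 3.30 in the GL7+ libraries. Summed over 6 T cell markers, cultured libraries held at most 0.386 RPKM, with Cd3e at 0 in each of the 4 cultured groups, against 8.03 to 8.70 in naive libraries. The 5 NK cell markers summed to at most 0.254 RPKM in cultured libraries and 2.87 to 4.64 in naive ones, and the 7 myeloid markers with a row to at most 4.32 and to 58.7 to 95.5. Of the 4 erythroid and platelet markers with a row, 1, Hbb-b1, reached a mean of 1 RPKM in naive cells, at 73.2. The 4 summed to 65.3 to 79.9 RPKM in naive libraries and 0.918 to 9.66 in cultured ones. By these sums, naive libraries held more T cell, NK cell, myeloid, and erythroid and platelet transcripts than cultured ones. The 5 dendritic cell markers differed: they summed to 22.4 to 25.6 RPKM in naive libraries and 31.3 to 33.1 in GL7+ DMSO. In CD138+ DMSO they summed to 9.77 to 11.1. Flt3 was higher in GL7+ DMSO than in naive cells (means of 31.6 and 6.35). Itgax (0.023 and 14.1), Siglech, Xcr1 and Zbtb46 were lower there. The part of all these markers in the comparisons with naive cells was not tested.

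The promoters of 4 genes are printed, chosen from the GSK-J4 results given below. In GL7+ cells Asns stood lower and Shmt1 higher with GSK-J4, with adjusted p of 0.045 and 0.17 (limma), so that Shmt1 was not called. In CD138+ cells Mthfd2 and Mthfd1l were lower together. Psph was lower there too (adjusted p = 0.040, limma) and is not printed. The 4 promoters were not tested against these changes. Each is the 120 bases before the annotated start site, read 5′ to 3′ on the gene's own strand from RefSeq on the GRCm38.p6 build. The Asns stretch lies on the minus strand at chr6:7693210-7693329, Shmt1 on the minus strand at chr11:60811266-60811385, Mthfd2 on the minus strand at chr6:83317605-83317724 and Mthfd1l on the plus strand at chr10:3972955-3973074. Capitals mark a match to TGATGNAA, the core of the element through which C/EBP and ATF factors act.
Asns: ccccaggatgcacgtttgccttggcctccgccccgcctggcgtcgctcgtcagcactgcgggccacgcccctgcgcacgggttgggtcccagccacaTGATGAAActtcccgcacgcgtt
Shmt1: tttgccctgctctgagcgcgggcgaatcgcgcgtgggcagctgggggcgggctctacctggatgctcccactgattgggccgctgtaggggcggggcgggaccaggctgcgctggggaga
Mthfd2: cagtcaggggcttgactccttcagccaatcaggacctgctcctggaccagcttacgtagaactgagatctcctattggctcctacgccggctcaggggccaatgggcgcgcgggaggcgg
Mthfd1l: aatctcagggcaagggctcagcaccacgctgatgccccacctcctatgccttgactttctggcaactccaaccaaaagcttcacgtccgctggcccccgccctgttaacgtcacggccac

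All 9 genes matched RefSeq promoters by symbol, with 10 start sites between them, since Psat1 has 2. Both strands of the 250 bases before each start site were searched for TGATGNAA and for the E-box CACGTG, which do not overlap in any of these windows. The TGATGNAA core was present in 1 of the 9 genes, Asns, as TGATGAAA at positions -23 to -16 from the start site, and 3.45% of all 32851 windows of this length hold it. CACGTG was present in 1, Cbs, starting at position -229, and 6.02% of all windows hold it. These are descriptions of the letters in 250 bases and say nothing of elements elsewhere.

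Of the 9 genes, 8 passed the filter of at least 1 RPKM in at least 3 libraries and were tested with limma on log2(RPKM + 1), with p-values adjusted over all 10866 genes that passed and a threshold of 0.05. Cbs did not pass. Its levels rested on 0 to 14 reads in each library: 0.055, 0 and 0 RPKM in naive cells, 0.222, 0.191 and 0.521 in GL7+ DMSO, 0.145, 0.358 and 0.209 in GL7+ GSK-J4, 0.226, 0.188 and 0.133 in CD138+ DMSO, and 0, 0.142 and 0.107 in CD138+ GSK-J4. Each group's range overlapped that of the next group in order, and no fold is given. The naive values lay below all those of both DMSO groups. With no filter, limma called Cbs in GL7+ DMSO against naive cells (log2 change 0.36, adjusted p = 0.0037), where 58.3% of all genes were called. In CD138+ DMSO against naive cells it did not (adjusted p = 0.054). A count of 0 allows up to 3 reads, which is 0.830 RPKM in naive replicate 2, 0.177 in naive replicate 3 and 0.175 in CD138+ GSK-J4 replicate 1.

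Cultured and naive cells were compared to see how these genes differ between stimulated and unstimulated B cells. All 8 tested genes were higher in GL7+ DMSO and in CD138+ DMSO cells than in naive cells, where 41.3% and 39.9% of all tested genes rose and 81.7% and 83.4% changed. The 9 genes together took 0.0255% ± 0.0021 (SD, n = 3) of all assigned reads in naive cells and 0.242% ± 0.0173 in GL7+ DMSO, 0.222% ± 0.00427 in GL7+ GSK-J4, 0.245% ± 0.00692 in CD138+ DMSO and 0.218% ± 0.000947 in CD138+ GSK-J4. The groups of all 8 genes did not overlap, as for 80.7% of all genes in GL7+ and 82.2% in CD138+ cells. The median log2 change of the 8 genes was 2.87 in GL7+ and 3.07 in CD138+ cells, beside 0.01 and -0.05 over all tested genes. Both comparisons share the naive libraries. In bulk RNA, fewer cells with a transcript and less RNA per cell cannot be told apart, here or in the results below.

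Asns had the widest step. Naive libraries held 0.512, 1.58 and 0.504 RPKM, on 13, 4 and 6 reads. GL7+ DMSO libraries held 116, 133 and 114 RPKM and CD138+ DMSO libraries 119, 130 and 129. Every cultured library was thus far above every naive one, and the means were 140-fold and 146-fold the naive mean, with log2 changes of 6.08 ± 0.15 (SE) and 6.14 ± 0.15 on the log2(RPKM + 1) scale. Without naive replicate 2, whose value rests on 4 reads, the naive mean was 0.508 RPKM and the folds were 238 and 248. The log2(RPKM + 1) scale understates the change of so low a gene: on reads, the voom fit gave 7.61 and 7.67. Among the enzymes that make serine, Psat1 rose from 8.15 ± 1.27 RPKM in naive cells to 182 ± 14 in GL7+ DMSO and 198 ± 2.25 in CD138+ DMSO (SD, n = 3). Phgdh rose from 32.6 ± 4.32 to 238 ± 15.2 and 303 ± 7.77, and Psph from 7.95 ± 1.02 to 51.3 ± 3.79 and 55.4 ± 4.67. The middle enzyme, Psat1, had the largest fold of the 3, 22.3-fold and 24.3-fold, against 7.30-fold and 9.28-fold for Phgdh and 6.46-fold and 6.97-fold for Psph.

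In the one-carbon enzymes, mitochondrial Shmt2 rose from 29.5 ± 0.865 RPKM in naive cells to 227 ± 18.3 in GL7+ DMSO and 242 ± 6.87 in CD138+ DMSO. Mthfd2 rose from 9.04 ± 1.06 to 117 ± 10.2 and 87.6 ± 3.49, and Mthfd1l from 11.1 ± 1.43 to 53.9 ± 3.06 and 31.4 ± 2.08. The step of Mthfd1l in CD138+ cells, 2.84-fold, was the smallest of the 8 in either fraction. Cytosolic Shmt1 rose from 6.82, 2.37 and 5.44 RPKM in the naive libraries to 32.7, 35.5 and 34.4 in GL7+ DMSO and 26.1, 25.0 and 26.0 in CD138+ DMSO. The low naive value is that of replicate 2 and rests on 8 reads. The largest adjusted p among the 8 genes was 1e-08 in GL7+ and 5.9e-08 in CD138+ cells, both for Shmt1, and all 8 stayed called when any library was left out.

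**Figure D1:**
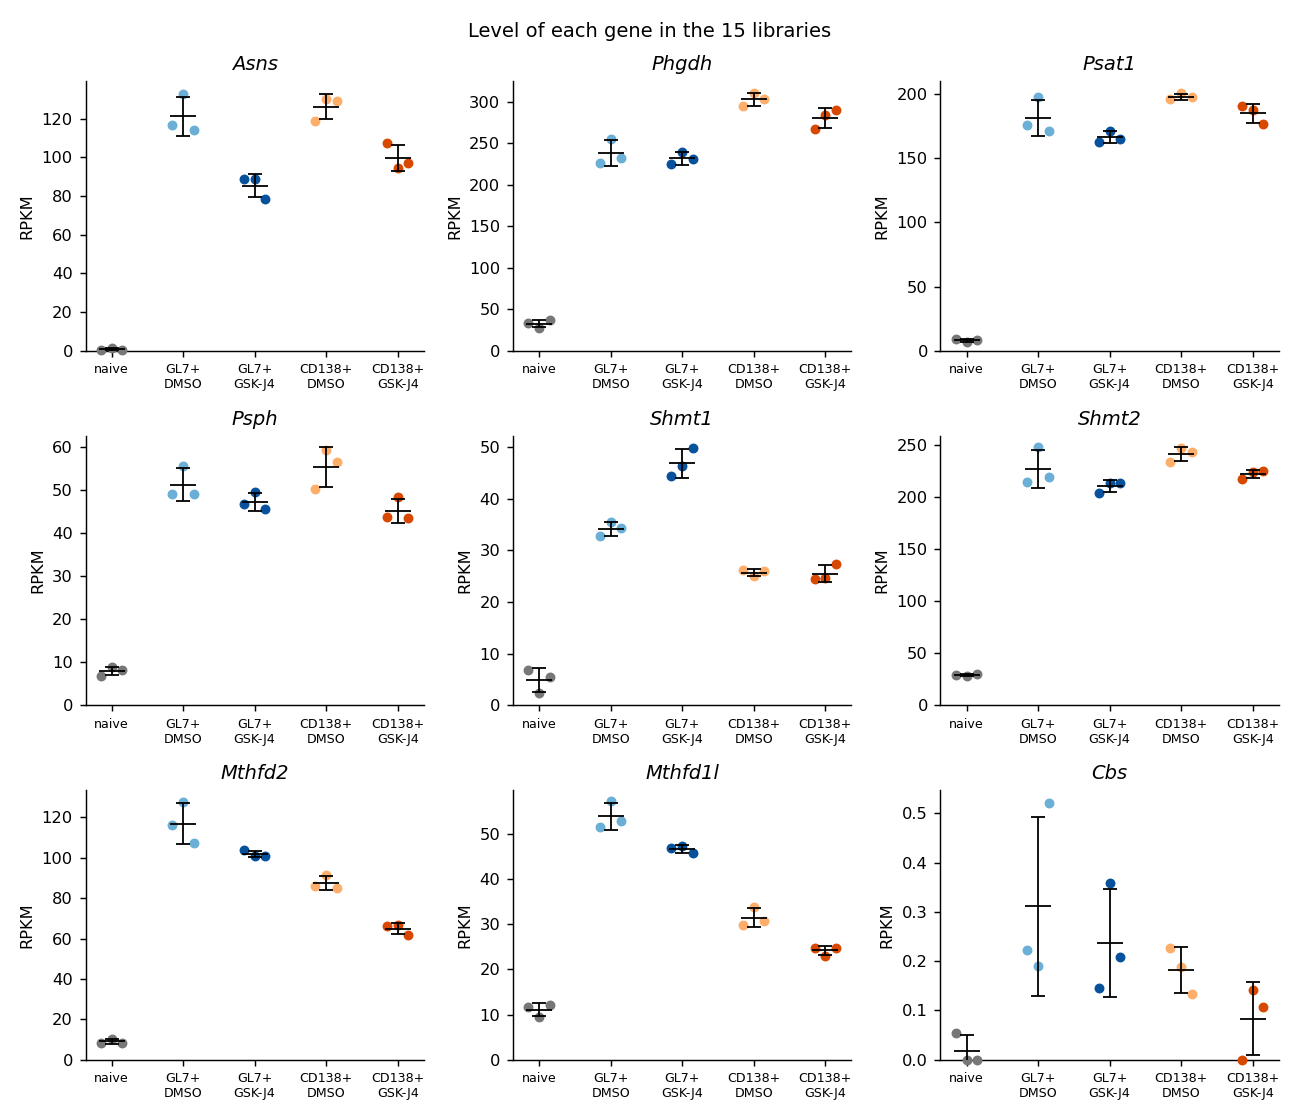
Level of each gene (y axis, RPKM, a scale of its own in each panel, starting at 0) in the 5 groups (x axis). Points are the 3 libraries of a group and black marks are the mean with 1 SD. All 8 tested genes were lower in every naive library than in any cultured one, Shmt1 was highest in GL7+ GSK-J4 cells at 44.5 to 49.9 RPKM, and Mthfd2 and Mthfd1l stepped down from GL7+ to CD138+ cells and again with GSK-J4.

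Levels can be ranked across these genes because RPKM are per length. Phgdh was highest in all 5 groups and Shmt2 next, and Cbs was lowest in all 5. Asns stood above Cbs alone in naive cells, and in each cultured group below Phgdh, Shmt2 and Psat1 and above Psph, Shmt1 and Mthfd1l. Across the groups, Asns had neighbours that overlapped in CD138+ DMSO (119 to 130 RPKM) and GL7+ DMSO (114 to 133), and below them stood CD138+ GSK-J4 (94.5 to 107) and GL7+ GSK-J4 (78.6 to 88.8), which overlapped neither each other nor the DMSO groups. Phgdh ran from CD138+ DMSO (295 to 310) to CD138+ GSK-J4 (267 to 289) and then to GL7+ DMSO (227 to 255) and GL7+ GSK-J4 (225 to 240), of which the last pair overlapped. For Mthfd2 and Mthfd1l no neighbours overlapped: both went from GL7+ DMSO to GL7+ GSK-J4, CD138+ DMSO, CD138+ GSK-J4 and naive.

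The comparison of CD138+ with GL7+ cells shows how these genes differ between cells enriched for the plasmablast marker and for the activation marker. Under DMSO, Phgdh was higher in CD138+ cells and Mthfd2 and Mthfd1l were lower, 3 of 8 tested, where 58.7% of all tested genes passed (21.8% higher and 36.9% lower). Under GSK-J4 Shmt1 was lower too, 4 of 8, where 63% of all genes passed (24% higher and 39% lower). The median log2 difference of the 8 genes was 0.07 under DMSO and 0.01 under GSK-J4, beside -0.10 over all genes in both.

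Phgdh, which opens serine synthesis, was at 227, 255 and 232 RPKM in GL7+ DMSO and at 295, 310 and 304 in CD138+ DMSO. All CD138+ values were above all GL7+ values, by 0.35 ± 0.08 (log2, SE; adjusted p = 0.0013). With GSK-J4 the difference was 0.27 ± 0.08 (adjusted p = 0.0066). Psat1, Psph and Shmt2 differed by 0.13, 0.11 and 0.09 under DMSO, with overlapping groups and adjusted p of 0.20, 0.30 and 0.16.

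Mthfd1l, which releases formate, was at 51.5, 57.4 and 52.9 RPKM in GL7+ DMSO and at 29.9, 33.8 and 30.6 in CD138+ DMSO. The groups were well apart, with a mean 41.7% lower in CD138+ cells, where it fell by 0.76 ± 0.08 (log2; adjusted p = 9.2e-07). Mthfd2 was at 116, 128 and 107 RPKM in GL7+ DMSO and at 85.8, 91.6 and 85.3 in CD138+ DMSO. It fell by 0.41 ± 0.07 (adjusted p = 0.00021), and again no value of one group reached the other. With GSK-J4 the differences were -0.92 ± 0.08 and -0.64 ± 0.07, with adjusted p of 1e-07 and 2.5e-06. These 2 comparisons share no library, but they share mice and the estimate of the spread, so they are not independent.

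Shmt1 under DMSO was lower in all 3 CD138+ libraries than in any GL7+ library, by -0.40 ± 0.20, and missed the threshold (adjusted p = 0.11). Under GSK-J4 it stood at 44.5, 46.3 and 49.9 RPKM in GL7+ and at 24.4, 24.7 and 27.4 in CD138+ cells. These groups were farther apart, by -0.85 ± 0.20 (adjusted p = 0.0020). Groups did not overlap for 4 of the 8 genes under DMSO and 7 under GSK-J4, where 71.3% and 70.1% of all genes did not. Under DMSO, without naive replicate 2, Shmt1 (adjusted p = 0.00017) and Psat1 (0.04) passed as well, so that 5 of 8 were called where 65.9% of all genes were. Under GSK-J4, Asns (0.011) and Psat1 (0.016) joined without that library, 6 of 8 where 69.4% of all genes were called.

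**Figure D2:**
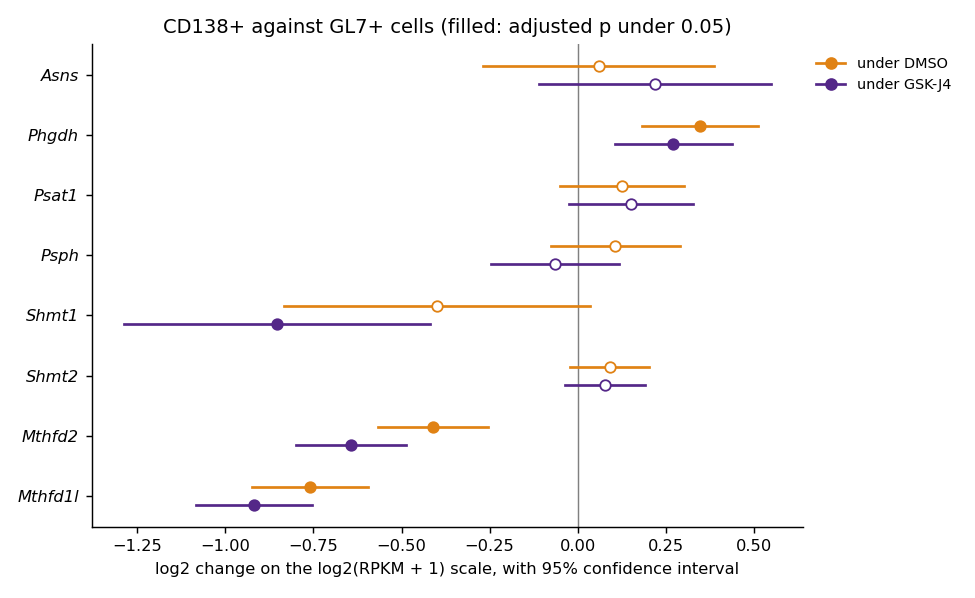
Difference between CD138+ and GL7+ cells (x axis, log2 change with its 95% confidence interval, on the log2(RPKM + 1) scale) for the 8 tested genes (y axis) under DMSO and under GSK-J4. Filled points passed the threshold: Phgdh lies to the right of 0 and Mthfd2 and Mthfd1l to the left under both, and Shmt1 passed under GSK-J4, at -0.85.

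GSK-J4 against DMSO in CD138+ cells asks what the demethylase inhibitor does to these transcripts in plasmablasts. Mthfd2, Mthfd1l and Psph fell, 3 of 8 tested, where 13.2% of all tested genes changed and 8.61% fell. All 8 changes were below 0, with a median of -0.20 beside -0.03 over all genes, and the groups did not overlap for 7 of the 8, as for 36.8% of all genes. The 3 GSK-J4 libraries had fewer reads than the DMSO libraries, and the summed level of 6 B cell markers was 820 to 865 RPKM with GSK-J4 and 1043 to 1101 with DMSO. The 6 plasma cell markers summed to 3122 to 3300 and to 2863 to 3076, and the 5 dendritic cell markers to 5.50 to 7.12 and to 9.77 to 11.1. Of the dendritic markers 1, Flt3, reached a mean of 1 RPKM, at 5.64 with GSK-J4 and 9.78 with DMSO. Xcr1 went the other way, at 0.459 and 0.333. The part of depth and of these markers in the result was not tested.

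Mthfd2 stood at 85.8, 91.6 and 85.3 RPKM with DMSO and at 66.2, 67.0 and 61.7 with GSK-J4. Every treated library was below every DMSO library, and the mean fell by 25.8% (log2 change -0.43 ± 0.07, adjusted p = 0.0018). Mthfd1l stood at 29.9, 33.8 and 30.6 RPKM with DMSO and at 24.8, 23.1 and 24.7 with GSK-J4. It too was lower in each treated library, with a mean that fell by 23.0% (log2 change -0.36 ± 0.08, adjusted p = 0.0071). Both stayed called under every alternative setting and with any library left out. Psph, the last enzyme of serine synthesis, went from 50.3, 59.4 and 56.5 RPKM to 43.7, 48.4 and 43.7. The groups did not overlap, the log2 change was -0.28 ± 0.09 (adjusted p = 0.040), and the call rested on the setting: its adjusted p was 0.081 with median-of-ratios scaling, 0.085 with quantile scaling, 0.075 with no filter and, rounded, 0.05 with a pseudocount of 0.1, where the call was lost. Without CD138+ DMSO replicate 2 or 3 the adjusted p of Psph was 0.16 or 0.12, without CD138+ GSK-J4 replicate 1 or 4 it was 0.11 or 0.12, and without GL7+ DMSO replicate 1 or 3 or GL7+ GSK-J4 replicate 1 it was 0.051 to 0.054.

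Asns stood at 119, 130 and 129 RPKM with DMSO and at 107, 94.5 and 96.9 with GSK-J4. The groups did not overlap, with a mean 21.0% lower, and the log2 change of -0.34 ± 0.15 missed the threshold (adjusted p = 0.17). All libraries enter 1 shared estimate of the spread, and without naive replicate 2 the adjusted p of Asns was 0.0037, so that 4 of 8 were called where 20.8% of all genes were. On recovered reads (voom) it was 0.0013, with 18.4% of all genes called. Phgdh (-0.11, adjusted p = 0.38), Psat1 (-0.10, 0.49) and Shmt2 (-0.12, 0.16) also had groups that did not overlap and were not called. Their 95% confidence intervals ran from -0.28 to 0.05, from -0.27 to 0.08 and from -0.23 to -0.01. Shmt1 was at 26.1, 25.0 and 26.0 RPKM with DMSO and 24.4, 24.7 and 27.4 with GSK-J4. It was the 1 tested gene whose groups overlapped, with a change of -0.01 and an interval from -0.45 to 0.42 (adjusted p = 0.99).

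In GL7+ cells the same comparison asks about activated B cells. Asns fell, 1 of 8 tested, where 13.5% of all tested genes changed and 7.71% fell. The changes of 7 of the 8 genes were below 0, with a median of -0.12 beside -0.01 over all genes, and groups did not overlap for 5 of the 8, as for 40.6% of all genes. The share called was close to the background. The B cell markers summed to 1288 to 1473 RPKM with GSK-J4 and 1693 to 1785 with DMSO, and the plasma cell markers to 773 to 868 and 599 to 659. The 5 dendritic cell markers summed to 21.0 to 22.0 with GSK-J4 and 31.3 to 33.1 with DMSO. Of them 1, Flt3, reached a mean of 1 RPKM, at 20.9 with GSK-J4 and 31.6 with DMSO. Itgax (0.083 and 0.023) and Xcr1 (0.369 and 0.285) went the other way, and Siglech and Zbtb46 were lower with GSK-J4. The 4 erythroid and platelet markers with a row summed to 8.81 to 9.66 and 5.36 to 6.55, with Hbb-b1 at a mean of 9.05 and 5.89. The part of these markers in the result was not tested.

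Asns stood at 116, 133 and 114 RPKM with DMSO and at 88.8, 88.8 and 78.6 with GSK-J4. No treated library reached a DMSO library, and the mean fell by 29.5% (log2 change -0.50 ± 0.15, adjusted p = 0.045). Within each mouse the change was -0.39, -0.58 and -0.53, lower in 3 of 3. The call is near the threshold in the fit over all libraries and was lost, with adjusted p of 0.051 to 0.15, when any 1 of the 12 cultured libraries was left out. Without naive replicate 2 it was 0.00037.

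Shmt1 was the 1 gene that stood higher with GSK-J4. It was at 32.7, 35.5 and 34.4 RPKM with DMSO and at 44.5, 46.3 and 49.9 with the inhibitor. The groups were well apart, the mean was 37.1% higher, and each mouse showed it, by 0.43, 0.37 and 0.53. The log2 change of 0.44 ± 0.20 had an interval from 0.01 to 0.88 and missed the threshold in limma's fit over all libraries (adjusted p = 0.17). In the naive libraries, which enter the shared spread, Shmt1 ran from 2.37 to 6.82 RPKM. Without naive replicate 2 the adjusted p was 0.00086, and with only the 12 cultured libraries, a fit added after the data were seen, it was 0.00054, with 21.9% of all genes called. On recovered reads it was 8.8e-05, with 24.1% of all genes called.

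Mthfd2 was at 116, 128 and 107 RPKM with DMSO and at 104, 101 and 101 with GSK-J4 (log2 change -0.19 ± 0.07, adjusted p = 0.095). Mthfd1l was at 51.5, 57.4 and 52.9 and at 46.9, 47.4 and 45.7 (log2 change -0.20 ± 0.08, adjusted p = 0.098). In both the groups stood apart by a narrow gap, as they did for Shmt2 (-0.11, adjusted p = 0.21), and none of the 3 was called in limma's fit of log2(RPKM + 1). Other fits over the same libraries called them: voom on recovered reads called Mthfd2 (adjusted p = 0.014) and Mthfd1l (0.009), the fit with the mouse as a block called Mthfd2 (0.047), and quantile scaling called Shmt2 (0.032). Without naive replicate 2, Mthfd2 and Mthfd1l had adjusted p of 0.026 and 0.017, which with Asns and Shmt1 makes 4 of 8 called, where 21.7% of all genes were. The serine enzymes Phgdh (-0.04, adjusted p = 0.81), Psat1 (-0.12, 0.37) and Psph (-0.11, 0.43) had overlapping groups, with intervals from -0.20 to 0.13, -0.30 to 0.05 and -0.30 to 0.07.

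**Figure D3:**
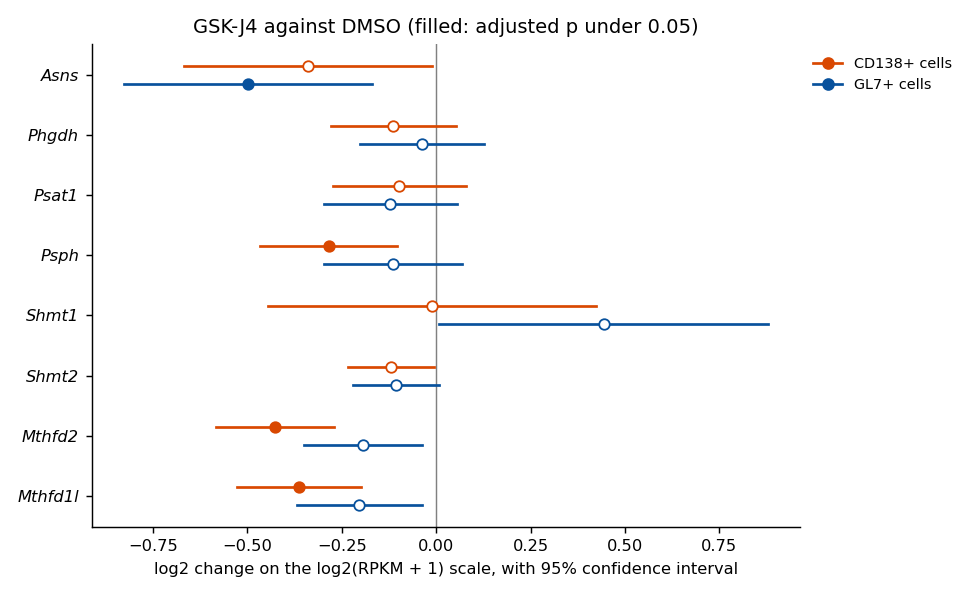
Change with GSK-J4 against DMSO (x axis, log2 change with its 95% confidence interval, on the log2(RPKM + 1) scale) for the 8 tested genes (y axis) in CD138+ and GL7+ cells. Filled points passed the threshold: Mthfd2, Mthfd1l and Psph in CD138+ cells and Asns in GL7+ cells. The Shmt1 interval is the widest, and in GL7+ cells its point, at 0.44, is the 1 clearly right of 0.

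**Figure D4:**
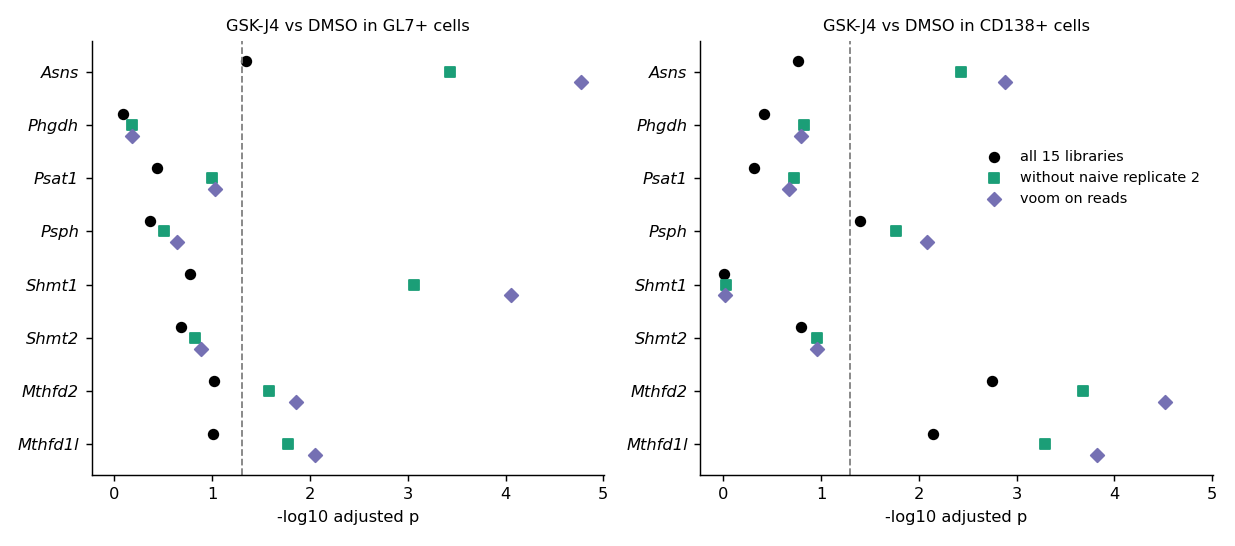
Adjusted p of the 8 tested genes (y axis) for GSK-J4 against DMSO, as -log10 on the x axis, in the fit over all 15 libraries, the fit without naive replicate 2 and the voom fit on recovered reads. The dashed line is the threshold of 0.05. Asns and Shmt1 in GL7+ cells and Asns in CD138+ cells move most between fits.

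Whether the inhibitor's effect differed between the fractions was tested as the difference of the 2 changes. In limma's fit over all libraries 0 of 8 genes passed, where 0.966% of all tested genes did. Before adjustment 1, Mthfd2, had a p under 0.05, and the share of all genes under it was not computed. The difference for Mthfd2 was -0.23 ± 0.10 (adjusted p = 0.35) and for Shmt1 -0.45 ± 0.29 (adjusted p = 0.54), both lower in CD138+ cells. For Asns it was 0.16 ± 0.22 (adjusted p = 0.83), with an interval from -0.30 to 0.62. The voom fit on recovered reads called 1 gene, Shmt1 (adjusted p = 0.018), where 3.98% of all genes were called, and so did the fit without naive replicate 2 (0.024, with 3.44% of all genes). The difference for Shmt1 thus passed the test of the difference in those fits, of which voom used all libraries, and missed it in limma's fit of log2(RPKM + 1) over all libraries.

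The 2 hydroxymethyltransferases were set against each other in each library, a ratio chosen after their values were seen. Shmt2 over Shmt1 was 6.54, 6.99 and 6.38 in GL7+ DMSO and 4.58, 4.62 and 4.29 in GL7+ GSK-J4. In CD138+ cells it was 8.95, 9.91 and 9.38 with DMSO and 8.92, 9.08 and 8.19 with GSK-J4. The GL7+ groups did not overlap and the CD138+ groups did, and both CD138+ groups lay above both GL7+ groups. The log2 ratio changed by -0.56 with GSK-J4 in GL7+ cells (exact two-sided permutation p = 0.1, the smallest that 3 against 3 can give) and by -0.11 in CD138+ cells (exact p = 0.2). Naive libraries gave 4.34, 12.04 and 5.57, of which the high value is replicate 2, with its 8 reads of Shmt1.

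**Figure D5:**
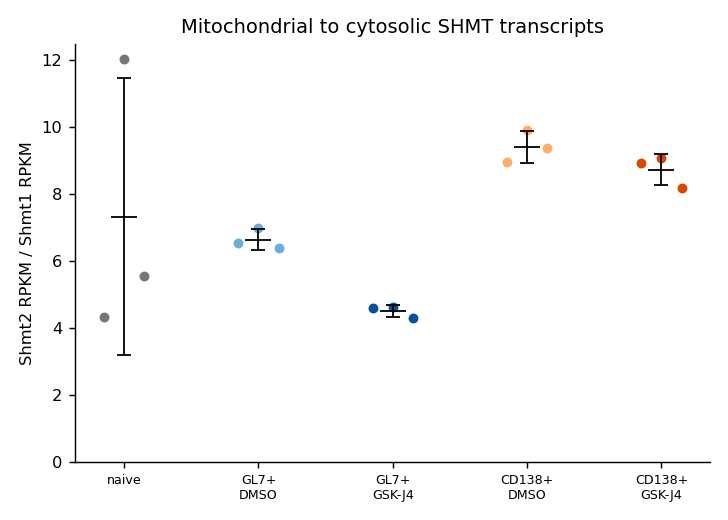
Ratio of Shmt2 to Shmt1 RPKM (y axis, from 0) in the 3 libraries of each group (x axis), with the mean and 1 SD in black. GL7+ GSK-J4 libraries lie at 4.29 to 4.62, below the GL7+ DMSO libraries at 6.38 to 6.99, and the CD138+ libraries lie at 8.19 to 9.91.

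The rest of the network was read from 6 lists of 75 genes, of which 61 passed the filter, on the folate cycle, glycine cleavage and serine use, the methionine cycle with transsulfuration, aspartate, asparagine and glutamine supply, transport of small neutral amino acids, and factors known to drive these genes. With GSK-J4, 2 of the 61 rose and 8 fell in CD138+ cells and 2 rose and 7 fell in GL7+ cells, where 4.61% and 5.81% of all genes rose and 8.61% and 7.71% fell. The same 5 genes fell in both fractions, and the share of all genes that fell in both was not computed. They include Cth, which makes cysteine from cystathionine, Gcat, which acts on glycine and aminoketobutyrate, and the mitochondrial serine carrier relative Sfxn3. Also among them were the glycine transporter Slc6a9 and the serine and alanine transporter Slc1a4.

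Cth, the next enzyme after CBS, went from 25.4 ± 3.87 RPKM to 13.6 ± 1.40 in GL7+ cells (log2 change -0.84 ± 0.13, adjusted p = 0.0010) and from 16.1 ± 1.48 to 9.21 ± 0.271 in CD138+ cells (-0.74 ± 0.13, adjusted p = 0.0019). Gcat went from 10.5 ± 0.581 to 6.19 ± 0.622 in GL7+ cells and from 9.94 ± 0.932 to 6.07 ± 0.762 in CD138+ cells, by -0.68 and -0.63. Slc6a9 fell by 0.66 and 0.48 on the log2 scale, Slc1a4 by 0.51 and 0.41, and Sfxn3 by 0.69 and 0.47.

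Of the other genes of the lists, cytosolic Mthfd1, which handles the same folate steps as the mitochondrial pair, rose in GL7+ cells from 54.0 ± 2.97 to 68.2 ± 1.98 RPKM (log2 change 0.33 ± 0.07, adjusted p = 0.0092). In CD138+ cells it stood at 36.1 ± 0.949 and 34.7 ± 2.84 and was not called. Amd1, of polyamine synthesis, rose in GL7+ cells by 0.33 (adjusted p = 0.0012), and Aldh1l2, a mitochondrial folate enzyme, and Glul, glutamine synthetase, fell there by 0.38 and 0.37 (adjusted p = 0.042 and 0.015). Mat2b, a subunit of methionine adenosyltransferase, fell in CD138+ cells by 0.39 (adjusted p = 0.0053). In the other fraction the means of Aldh1l2, Glul and Mat2b were lower with GSK-J4 too, without being called. Mat2b went from 18.42 to 16.25 RPKM in GL7+ cells. Glul went from 11.5 to 9.92 and Aldh1l2 from 3.58 to 3.23 in CD138+ cells. None of them passed the test of the difference between fractions.

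Between the fractions under DMSO, where 21.8% of all genes were higher and 36.9% lower in CD138+ cells, 4 of 7 tested transporters were higher, 1 was lower and 2 were not called. The higher ones were Slc3a2 at 147 against 82.2 RPKM, Slc1a5 at 174 against 103, Slc7a5 at 244 against 159 and Slc38a2 at 109 against 81.6. In the folate cycle 3 of 13 were higher and 8 lower, with Ggh, which trims folate side chains, higher at 16.7 against 4.56 RPKM (log2 difference 1.67, adjusted p = 1.4e-07) and Mthfd1 lower at 36.1 against 54.0. In the methionine cycle 7 of 11 were lower, among them Ahcy at 138 against 176 RPKM. The median log2 difference was 0.42 for the transporters, -0.28 for the folate cycle and -0.22 for the methionine list, beside -0.10 over all genes.

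Against naive cells, 37 of the 61 genes rose and 13 fell in GL7+ DMSO cells, and 38 rose and 15 fell in CD138+ DMSO cells, where 41.3% and 39.9% of all genes rose and 40.3% and 43.5% fell. In the list of aspartate, asparagine and glutamine supply 9 of 10 rose in GL7+ cells and 7 of 10 in CD138+ cells, with Nars, which charges tRNA with asparagine, going from 44.1 to 231 RPKM in GL7+ cells. Thymidylate synthase Tyms went from 1.66 to 20.9 RPKM there.

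Of the 8 factors known to drive these genes, Atf4 rose from 155 ± 5.62 RPKM in naive cells to 313 ± 13.5 in GL7+ DMSO and 304 ± 4.26 in CD138+ DMSO, by 1.01 and 0.97 (log2). Atf5 rose by 2.44 and 3.24, Myc fell by 2.01 and 1.77, and Nfe2l2 changed by -0.96 and -1.27. All 8 were called in both comparisons, where 81.7% and 83.4% of all genes were. In GL7+ cells 3 rose and 5 fell, and in CD138+ cells 4 rose and 4 fell. Atf3 stood at 26.05 RPKM in naive cells, 19.6 in GL7+ DMSO and 4.76 in CD138+ DMSO. Ddit3 stood at 36.9, 22.25 and 19.3 in the same groups. With GSK-J4 in CD138+ cells, where 13.2% of all genes were called, Myc (0.40, adjusted p = 0.0092) and Cebpb (0.45, 0.034) rose. Atf3 (-0.96, 0.0014) and Cebpg (-0.28, 0.028) fell there, and Atf4 differed by 0.08 (adjusted p = 0.28). In GL7+ cells limma called 0 of the 8 over all libraries, where 13.5% of all genes were called. An unadjusted p under 0.05 was seen for 5, and the share of all genes under it was not computed. The voom fit called 2 there, Atf3 (-0.40, adjusted p = 0.0055) and Myc (0.29, 0.014), where 24.1% of all genes were called, so the count is near the background. In limma's fit Atf4 differed by -0.11 (adjusted p = 0.11). Transcript levels of a factor do not give the amount or activity of its protein.

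Likeness of pattern was described over the 12 cultured libraries by Pearson's r of log2(RPKM + 1). These libraries fall into 4 groups, so r mostly reflects group means and carries no test. Mthfd2 and Mthfd1l were the most alike pair among the 8 genes (r = 0.96), followed by Psat1 and Shmt2 (0.88) and Phgdh and Psat1 (0.81). Shmt1 ran against Phgdh (-0.82) and Psat1 (-0.78). Among all other genes with at least 5 RPKM in their highest group, the most alike to Asns were Pck2 (0.96), Mib2 (0.95) and Gpr171 (0.93), to Phgdh Aldh18a1, Tmed6 and Sqstm1 (0.98 each), and to Psat1 Sars (0.97), Ackr3 (0.94) and Bmf (0.93). Psph was nearest to Slc7a3 (0.88), Cebpg (0.87) and Gnb2l1 (0.86), and Shmt2 to Dennd2d (0.89), Slc7a3 (0.88) and Ndufa2 (0.87). For Shmt1 they were Smyd5 (0.99), Ubtf and Ctps (0.98 each), for Mthfd2 Galk1, Ldha and Higd1a (0.99 each), and for Mthfd1l Marcksl1 (0.996), Acly and Impdh2 (0.99 each).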

How the data were processed

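Poly(A) RNA of 15 libraries was sequenced. The deposited table gives RPKM per gene and, in another column, of a kind apart, the gene length in bases, per the file headers. The genome build mm9 and the aligner TopHat2 are named, per the submitters' processing notes, with counting tool, strand setting and versions not given in the sources used here. Since strand is unknown, reads of Psph, Shmt1 and Shmt2 cannot be told from those of Cct6a, Smcr8 and Ndufa4l2 where exons overlap on opposite strands in GENCODE. RPKM times length summed to 1000000 in every library, and 100% of low values (up to 20 reads) were whole reads within 0.1 read, which gave the depths. RefSeq sequences are from another build, GRCm38.p6, and were used for promoters only.

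The 10866 genes that reached 1 RPKM in 3 or more libraries entered limma (version 3.58.1, R 4.3.3) as log2(RPKM + 1): 1 fit over all 15 libraries, trended variance, 7 contrasts, Benjamini-Hochberg adjustment over all genes, threshold 0.05. Alternatives were a pseudocount of 0.1, no filter or 5 RPKM, median-of-ratios and quantile scaling, only the compared groups, limma-voom on recovered reads, the mouse as a replicate block, each library left out and, added after seeing the data, only the cultured libraries. The table column numbered 4 in CD138+ GSK-J4 matched its group and no single sample. The labels' mouse numbers pair the samples: deviations correlated with a median r of 0.09 within mice (-0.03 to 0.19, 15 pairs) and -0.03 between mice. Any 2 libraries differed in at least 99.0% of tested genes. The 9 genes are named throughout. From each other list, genes past the threshold were named, up to 4 with the smallest adjusted p, and 3 genes per member for likeness. Members and lists were chosen with earlier results of these data known. The limma fit of log2(RPKM + 1) was tested on simulated data for GSK-J4 against DMSO in CD138+ cells only. The simulated spread came from the cultured groups, so it does not cover the spread of the naive libraries. Figures used matplotlib 3.10.9 in python 3.11.15.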

Additional observations from a re-analysis of the deposited data

Results flagged for a closer look

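A difference between the fractions in the response to GSK-J4 passed the test for 1 of 61 tested genes of the lists around these enzymes. Of all tested genes 0.966% passed, so the count is near the background. Amd1, which encodes S-adenosylmethionine decarboxylase of polyamine synthesis, went from 55.1 ± 2.28 to 69.6 ± 3.21 RPKM (SD, n = 3) in GL7+ cells and from 49.0 ± 1.58 to 47.6 ± 1.3 in CD138+ cells. The difference of the 2 log2 changes was -0.369 (adjusted p = 0.029, limma). Reads of Amd1 may be split with a near-identical copy, which was not tested.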

How the results depend on the processing

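Calls against naive cells held in all 8 tested genes under every alternative run, as did those of Mthfd2 and Mthfd1l with GSK-J4 in CD138+ cells. In GL7+ cells the number of genes called with GSK-J4 was 1 in the fit over all libraries, 0 with a pseudocount of 0.1, no filter or median-of-ratios scaling, 2 with quantile scaling, 3 with only the compared groups, 4 with voom or only the cultured libraries, and 0 to 4 with a library left out. The Asns call there had adjusted p of 0.26, 0.097 and 0.059 under the settings that gave 0. For the difference between fractions the count was 0, and 1 with only the compared groups, voom or only the cultured libraries, and 0 to 1 with a library left out. Between fractions under DMSO it was 3, and 5 with median-of-ratios scaling, voom or only the cultured libraries, and 3 to 5 with a library left out. In each, the upper end is the fit without naive replicate 2, the shallowest library. For GSK-J4 in CD138+ cells the range was 2 to 4. The paired fit with the mouse as a replicate block, in which the library with no known mouse was a block of its own and so added nothing, called 2 genes in GL7+ cells, Asns (adjusted p = 0.042) and Mthfd2 (0.047), and changed no other call of these genes. The causes were not tested.

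Directions reversed where the change was near 0 and not called. Shmt1 in CD138+ cells with GSK-J4 was 0.0183 and 0.00194 with median-of-ratios and quantile scaling, and -0.062 to 0.0188 with a library left out. Phgdh in GL7+ cells was 0.00572 with median-of-ratios scaling and -0.0721 to 0.0135 with a library left out. In the difference between fractions, Shmt2 was 0.0581 with quantile scaling and -0.0777 to 0.0276 with a library left out, and Psat1 -0.0376 to 0.0645. Between fractions, Shmt2 was -0.00227 under DMSO with quantile scaling, and Psph under GSK-J4 was 0.0243 and 0.0141 with median-of-ratios and quantile scaling.

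Over all genes, 1437 were called with GSK-J4 in CD138+ cells, and 927 with the block, 2320 with only the cultured libraries and 825 to 2182 with a library left out. In GL7+ cells 1469 were called, and 2621 with voom, 2383 with only the cultured libraries and 743 to 2281 with a library left out. For the difference between fractions it was 105, and 53 with no filter, 418 with only the compared groups or only the cultured libraries, 433 with voom, 32 with the block and 18 to 361 with a library left out. Depth limits Cbs throughout and Asns and Shmt1 in naive cells.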
